A study of Drosophila melanogaster with 20 samples.

Results

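Under-replicated regions of the Drosophila melanogaster salivary gland genome were examined by position, from the centre of each region through its edges to its flank. The members were the 101 regions of the study's combined list of published under-replicated regions, given in coordinates of the dm3 assembly. They hold 5110 of the 27631 windows of the H3K27me3 profiles and 5110 of the 27611 windows of the H3K27me2 profiles. A window was assigned by its centre. The middle 50% of a region was called its centre, the outer 25% on either side its edge, and the next 100 kb on either side its flank, without windows that lie in another region of the list. The list was drawn up from DNA copy number in earlier studies, so neither mark took part in the choice of the members.

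In the polytene chromosomes of the larval salivary gland, DNA is replicated over and over without cell division, and some late-replicating regions do not keep up with the rest. Replication forks enter such a region from its borders, and the copy number drops towards its interior. The SUUR protein (Suppressor of Under-replication) travels with the forks and slows them, and in SuUR mutants the regions are largely filled in. H3K27me3 is the repressive histone mark deposited by Polycomb repressive complex 2 and bound by Polycomb, whereas H3K27me2, made by the same enzyme, is spread widely over inactive chromatin. Both marks have to be restored after each passage of a fork.

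The profiles came from glands of late larvae (the 3rd instar) of 2 genotypes, yw (the wild type control, written y,w below) and the SuUR mutant. H3K27me3 was precipitated with an antibody from Cell Signaling Technology and H3K27me2 with one from Millipore. A profile combines a single ChIP library with a single input, which makes 4 profiles from 8 libraries. Differences between the genotypes thus rest on a single pair of profiles for each mark and are given without p-values. Whole glands were profiled, so that fewer marked chromatids and less mark on each cannot be told apart.

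A value is log2 of the ChIP/input ratio in a window of 50 kb, and windows follow each other at steps of 5 kb. Neighbouring windows therefore share most of their reads, and a border is blurred over about 1 window. The sorted values of both genotypes were identical within each mark (largest gap 0), because the authors had quantile normalized them. A change of the whole genome can thus not appear, and a gain in one part of the genome lowers the rest. For H3K27me3, windows outside the arms and chromosome 4 (heterochromatic scaffolds) had a mean difference, y,w minus SuUR, of 0.46, whereas the median over the 23682 windows of the arms was −0.075. A difference on the arms is therefore read against that shift, and contrasts between positions of the same region, from which a constant shift drops out, carry the comparison. For H3K27me2 the corresponding values were 0.00079 and 0.005. The H3K27me3 shift was not the same at all levels. The 0.05, 0.5 and 0.95 quantiles of the arm windows were −0.485, −0.10 and 0.595 in y,w and −0.40, −0.06 and 0.74 in SuUR. A shift that depends on level can stay in a contrast between positions of unlike level. Depth is unknown, because the profiles hold no read counts. The values are also ratios to input, and input can follow copy number, which in these regions differs by position and genotype. Such a change is not a constant shift and does not drop out of the contrasts. The study itself raised that a higher copy number in SuUR could lower the H3K27me3 ratio. How much of a contrast comes from input was not tested.

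The regions were 60 to 788 kb long, with a median of 217 kb. Arm 2L held 25 of them, 2R 14, 3L 16, 3R 26 and X 20. At the centre a region had a median of 22 windows, with a range from 6 to 79. In 44 regions shorter than 200 kb, the outer 25% of the region is shorter than 1 window, so the edge there also reads centre and flank. In 29 regions another region of the list lay within 100 kb. As a background, the arms were divided into consecutive stretches as long as the median region (to the nearest 5 kb), and the 340 that touch no under-replicated region were cut into centre, edge and flank in the same way. Errors given with medians are SD over regions. Regions are not replicates of a genotype, and a median over them describes these 4 profiles.

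H3K27me3 rose in steps from flank to centre in y,w. The median level was −0.14 (SD 0.16, n = 101) in the flank, 0.034 (SD 0.35) at the edge and 0.099 (SD 0.40) at the centre. In SuUR the corresponding medians were −0.050 (SD 0.19), 0.061 (SD 0.37) and 0.088 (SD 0.42). The SuUR profile thus started higher in the flank and ended slightly lower at the centre, with ranges that overlapped almost fully at every position. The lowest and highest centre values were −0.52 and 2.46 in y,w, and −0.32 and 2.56 in SuUR. The stretches without under-replication showed no step in either genotype. Their contrasts of centre with edge had medians of 0.0013 in y,w and −0.0068 in SuUR.

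**Figure D1:**
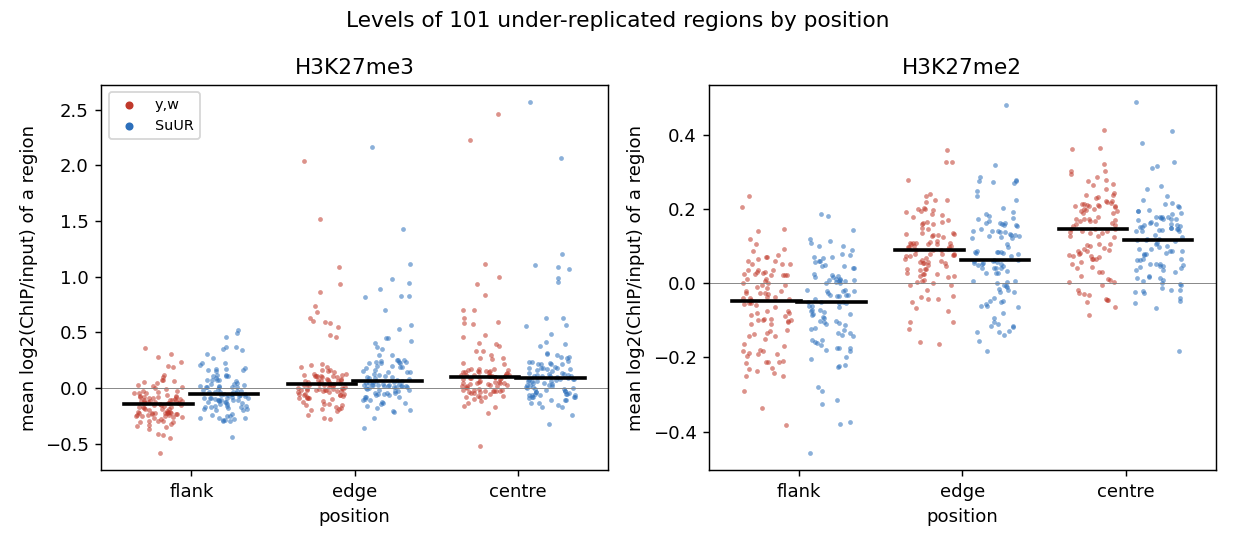
Mean log2(ChIP/input) of each of the 101 regions (points) in flank, edge and centre for y,w (red) and SuUR (blue), with H3K27me3 on the left and H3K27me2 on the right, on axes of different range. Black bars are medians over regions, which for H3K27me3 went from −0.14 to 0.034 and 0.099 in y,w and from −0.050 to 0.061 and 0.088 in SuUR.

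Counted region by region, the y,w centre lay above the edge in 71 of 101 regions (70.3%, stretches 50.3%). It was higher by more than 0.1 in 46, or 45.5%, against 28.5% of the stretches. It lay below by more than 0.1 in 12 regions, or 11.9%, against 31.5% of the stretches. In SuUR the centre was above the edge in 54 regions (53.5%), near the 48.5% of the stretches. It was higher by more than 0.1 in 36, or 35.6%, again against 28.5% of the stretches. A SuUR centre lower by more than 0.1 was found in 27 regions, or 26.7%, near the 31.5% of the stretches. Against the flank, the y,w centre was higher by more than 0.1 in 80 regions (79.2%, against 30% of the stretches) and the SuUR centre in 56 (55.4%, against 29.1%). The medians of these contrasts were 0.084 (SD 0.20) for centre minus edge and 0.25 (SD 0.40) for centre minus flank in y,w. In SuUR they were 0.023 (SD 0.23) and 0.16 (SD 0.42).

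A complete staircase, with the centre above the edge and the edge above the flank, was present in 58 regions in y,w (57.4%, stretches 19.1%) and in 38 in SuUR (37.6%, stretches 20.3%). A centre above both of its edges, taken apart, was found in 44 regions in y,w (43.6%, stretches 27.6%) and in 36 in SuUR (35.6%, stretches 28.8%). The converse, a centre below both edges, was found in 11 regions in y,w (10.9%, stretches 25.6%) and in 26 in SuUR (25.7%, stretches 28.8%). The highest window of a region lay at the centre in 61 regions in y,w (60.4%, stretches 41.8%) and in 48 in SuUR (47.5%, stretches 47.6%). In y,w the shape of the regions therefore stood away from the background on each of these 4 counts. In SuUR it did so for the complete staircase and, by less, for the centre above both edges.

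The genotype difference in H3K27me3, y,w minus SuUR, followed from these shapes. Its median was −0.13 (SD 0.11) in the flank, −0.069 (SD 0.17) at the edge and 0.0061 (SD 0.20) at the centre. It was above 0 in 14 regions in the flank, in 32 at the edge and in 53 at the centre. The stretches had a difference of −0.10 in their flanks, −0.096 at their edges and −0.091 at their centres. A centre at 0.0061 was thus about 0.1 above the centres of other stretches of the arms, and the flanks were not above the flanks of those stretches. The centre difference was above 0.2 in 7 regions, or 6.93%, against 5.59% of the centres of the stretches, and below −0.2 in 19, or 18.8%, against 24.1%. Single windows of the arms, which are not averaged and vary more, passed these values in 12.4% and 29.3%. The whole inside of a region was above 0.2 in 7 regions (6.93%, stretches 3.53%) and below −0.2 in 14 (13.9%, stretches 18.5%).

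Centre minus edge of the difference had a median of 0.056 (SD 0.18) and was above 0 in 65 of 101 regions (64.4%, stretches 46.2%). It was above 0.1 in 40 regions, or 39.6%, against 28.2% of the stretches, and below −0.1 in 21, or 20.8%, against 29.4%. Centre minus flank had a median of 0.11 (SD 0.22) and was above 0 in 74 regions (73.3%, stretches 50%). It was above 0.1 in 53 regions, or 52.5%, against 29.7% of the stretches, and below −0.1 in 17, or 16.8%, against 29.1%. The spread was no smaller than in the rest of the arms, since the SD of centre minus edge was 0.18 in the regions and 0.18 in the stretches. Single regions on either side of 0 were common.

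**Figure D2:**
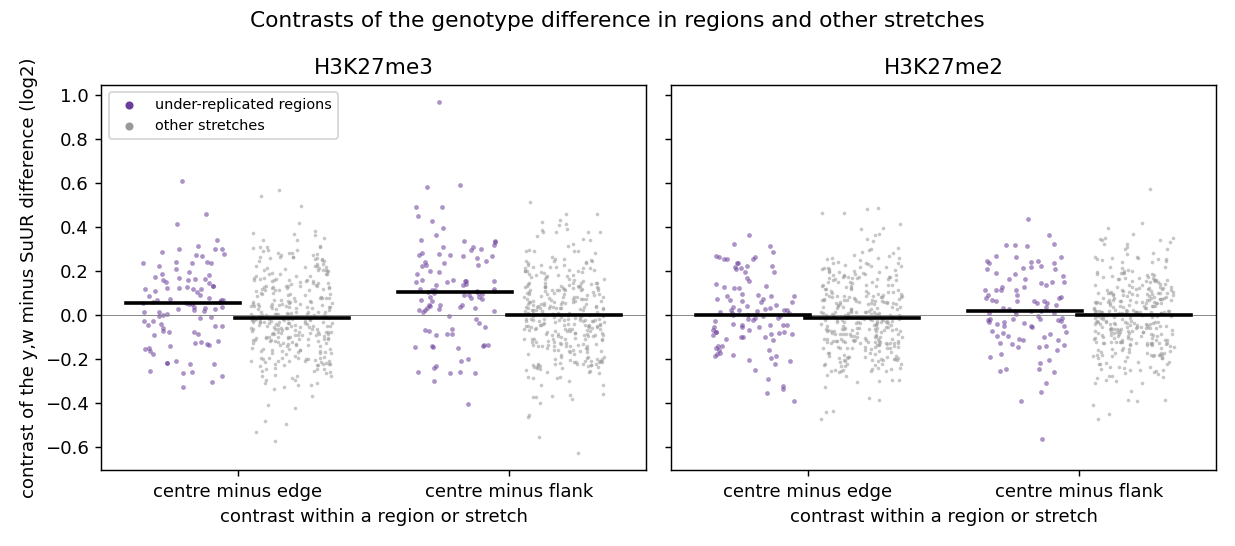
Contrast between positions of the y,w minus SuUR difference (log2), centre minus edge and centre minus flank, for each of the 101 regions (purple) and each of the 340 other stretches (grey), with medians as black bars. For H3K27me3 the region medians were 0.056 and 0.11 and those of the stretches near 0, and for H3K27me2 the region medians were 0.00077 and 0.021, with wide overlap of the points throughout.

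Distance from the border in kb, rather than in shares of the length, was followed in the 57 regions of at least 200 kb (55 of them in the flank beyond 60 kb). In y,w, H3K27me3 changed little outside, with medians of −0.17 at 90 kb and −0.13 at 10 kb from the border. Inside it climbed from −0.071 at 10 kb to 0.039 at 50 kb and 0.11 at 90 kb, where it was still rising. In SuUR the level went from −0.11 at 70 kb outside to 0.0075 at 10 kb inside, reached 0.098 at 70 kb and stood at 0.068 at 90 kb. The difference was flat at −0.13 to −0.14 from 90 to 10 kb outside, apart from −0.12 at 70 kb. It then rose with each step, through −0.11 at 10 kb, −0.063 at 30 kb, −0.048 at 50 kb and −0.020 at 70 kb to 0.027 at 90 kb inside. In these 57 regions the genotype difference was thus nearly flat outside and rose over the followed distance inside. Where the rise began cannot be placed more finely than a window of 50 kb. With all regions cut into 10 equal parts, the rise towards the middle was not steady. The median difference was −0.069 in part 1 and −0.070 in part 10. In between it was 0.0045 in part 3, −0.043 in part 4, 0.013 in part 7 and −0.040 in part 8.

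**Figure D3:**
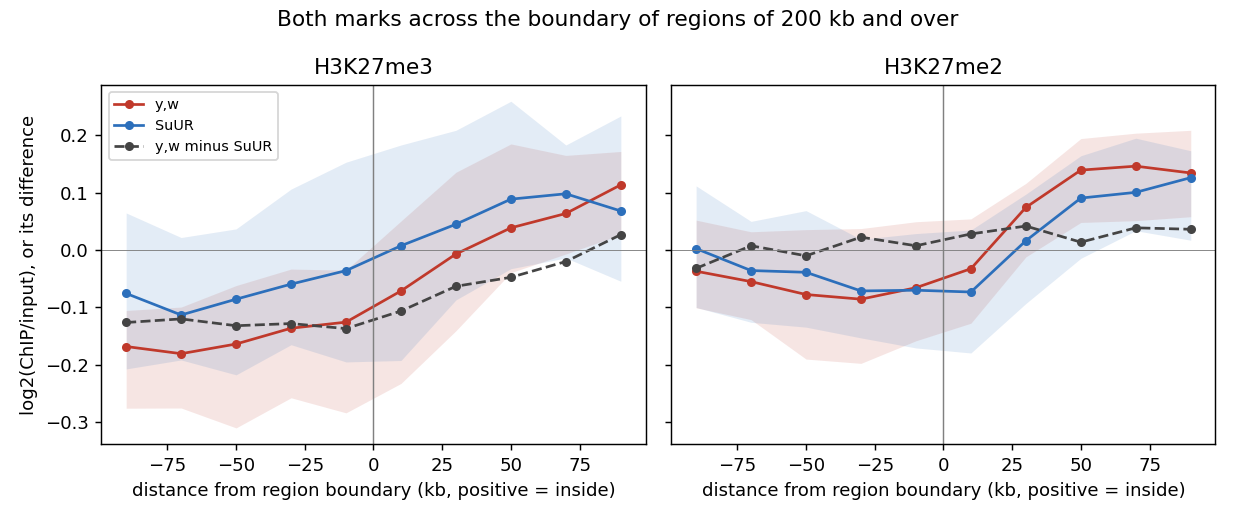
Median log2(ChIP/input) over regions of at least 200 kb in bins of 20 kb by distance from the region boundary (kb, positive inside), for y,w (red), SuUR (blue) and y,w minus SuUR (dashed), with the quartiles over regions shaded for both genotypes. The H3K27me3 difference rose from −0.11 at 10 kb to 0.027 at 90 kb inside, and the H3K27me2 difference lay between −0.032 and 0.042 throughout.

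H3K27me2 was also higher inside the regions than around them, and in both genotypes alike. Its median in y,w was −0.048 (SD 0.12) in the flank, 0.090 (SD 0.098) at the edge and 0.15 (SD 0.10) at the centre. In SuUR it was −0.050 (SD 0.12), 0.064 (SD 0.12) and 0.12 (SD 0.11). The centre was above 0 in 90 regions in y,w and in 88 in SuUR, and its highest value was only 0.41 in y,w and 0.49 in SuUR, with no counterpart to the H3K27me3 values above 2. The centre exceeded the flank by more than 0.1 in 78 regions in y,w (77.2%, against 31.8% of the stretches) and in 73 in SuUR (72.3%, against 30.3%). It exceeded the edge by more than 0.1 in 43 regions in y,w (42.6%, against 29.1%) and in 36 in SuUR (35.6%, against 29.1%). The staircase from flank to centre was complete in 57 regions in y,w (stretches 20.3%) and in 48 in SuUR (stretches 19.7%).

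The H3K27me2 difference did not separate centre from edge. Its median was −0.0025 (SD 0.10) in the flank, 0.023 (SD 0.12) at the edge and 0.037 (SD 0.14) at the centre, where it passed 0.2 in 10 regions and −0.2 in 5 (9.90% and 4.95%, against 6.18% and 8.82% of the centres of the stretches). Single windows of the arms passed these values in 17.8% in either direction. Centre minus edge had a median of 0.00077 (SD 0.16) and was above 0 in 51 of 101 regions (50.5%, stretches 46.2%). It was above 0.1 in 26 regions, or 25.7%, against 25.3% of the stretches, and below −0.1 in 23, or 22.8%, against 30%. Centre minus flank had a median of 0.021 (SD 0.18), was above 0.1 in 34 regions (33.7%, against 25.9% of the stretches) and below −0.1 in 22 (21.8%, against 27.6%). Counted within the same region, the H3K27me3 contrast of centre with edge exceeded the H3K27me2 contrast in 61 of 101 regions (60.4%). This count was not made for the stretches, so whether the share stands away from them is not known.

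By distance from the border, H3K27me2 rose more abruptly than H3K27me3. In y,w it was lowest at −0.086 at 30 kb outside, still −0.033 at 10 kb inside, and 0.14 at 50 kb, after which it was level (0.15 at 70 kb and 0.13 at 90 kb). In SuUR it was −0.073 at 10 kb inside, 0.091 at 50 kb and 0.13 at 90 kb. The H3K27me2 rise was thus over within about 1 window of the border in y,w, whereas the H3K27me3 level of y,w still rose at 90 kb.

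The order of the regions in y,w and SuUR was compared for each mark. Across the 101 regions, y,w and SuUR levels of H3K27me3 at the centre had Pearson r = 0.88 and Spearman rho = 0.46, the former with a few regions of very high level among its points. At the edge rho was 0.52 and in the flank 0.71. For H3K27me2 the same pairs had r = 0.079 at the centre, 0.44 at the edge and 0.63 in the flank, with rho of 0.067, 0.45 and 0.60. By rank, the genotypes thus agreed least at the centre in both marks, and less for H3K27me2. The H3K27me2 centre level of a region in y,w therefore said almost nothing of its level in SuUR, although the medians of both genotypes were close. The H3K27me3 and H3K27me2 contrasts of the difference, centre minus edge, had r = 0.023. All these points come from the same 4 profiles, windows of neighbouring regions can share reads, and each difference holds the values of both its genotypes.

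Windows also varied within a position. At the centre, the SD over the windows of a region had a median of 0.12 in y,w and 0.17 in SuUR for H3K27me3, and of 0.11 and 0.12 for H3K27me2. For H3K27me3, y,w had the larger SD of both genotypes at the centre in 40 of 101 regions (39.6%), close to the 37.6% among the stretches. In the 31 regions of at least 300 kb this was so in 17 (54.8%). For H3K27me2 at the centre, y,w had the larger SD in 57 of 101 regions (56.4%). In the same 31 long regions, the H3K27me2 SD at the centre was larger in y,w in 22 (71.0%), with medians of 0.17 in y,w and 0.14 in SuUR. At the edge of these long regions it was larger in y,w in 13 (41.9%) and in the flank in 10 (32.3%). Among the stretches, which are shorter, it was larger in y,w in 41.8% at the centre, 40.9% at the edge and 41.8% in the flank. Of the 3 positions, the centre of the long regions was thus the one where the y,w profile of H3K27me2 was more often the rougher.

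The H3K27me3 difference rose with region length at the edge, less regularly at the centre, and not in the flank. At the edge its median went from −0.15 (SD 0.18, n = 27) in regions under 150 kb to −0.070 (SD 0.19, n = 43) in those of 150 to 300 kb and −0.045 (SD 0.12, n = 31) in those of 300 kb and over. At the centre it was 0.014 (SD 0.20), −0.044 (SD 0.21) and 0.052 (SD 0.17) in this order, so the middle class was the lowest. In the flank it was −0.095, −0.13 and −0.14. The centre difference was above 0 in 15 of 27, 15 of 43 and 23 of 31 regions. Over all 101 regions the rank correlation with length was 0.27 at the centre, 0.27 at the edge and −0.076 in the flank, as a description over regions that share the 4 profiles and differ in their number of windows.

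Centre minus flank of the difference had medians of 0.10, 0.076 and 0.16 in the 3 length classes, and in the longest class it was above 0 in 26 of 31 regions and above 0.1 in 21 (67.7%). Stretches of 390 kb, cut for comparison with the longest class, passed 0.1 in 29.9%. Centre minus edge showed little relation with length, with medians of 0.056, 0.038 and 0.073 and a rank correlation of 0.084. The levels behind these values moved mostly in SuUR at the short end. In regions under 150 kb the SuUR edge stood at 0.11 and the SuUR centre at 0.032, so that the centre was above the edge in only 9 of 27, whereas the y,w centre was above the edge in 18. The centre of such a region is little wider than 1 window or narrower, and the 3 positions are the least separate there.

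**Figure D4:**
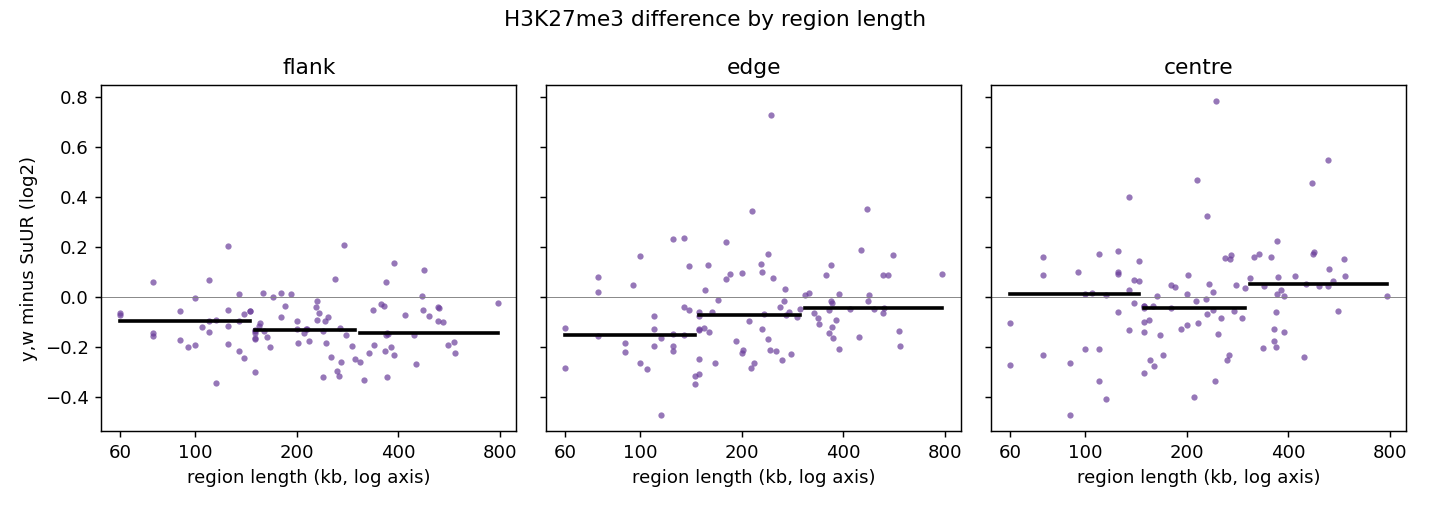
H3K27me3 difference, y,w minus SuUR (log2), of each of the 101 regions in flank, edge and centre against region length (kb, log axis), with the median of each length class as a black bar. The bars rose with length at the edge (−0.15, −0.070 and −0.045), ended highest in the longest class at the centre (0.052), and stayed between −0.095 and −0.14 in the flank.

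For H3K27me2, length showed in the SuUR profile. The median of centre minus edge in SuUR was −0.025 in regions under 150 kb, 0.048 in those of 150 to 300 kb and 0.090 in the longest class, where it was above 0 in 23 of 31. In y,w it was 0.046, 0.11 and 0.032. The difference, centre minus edge, accordingly went from 0.060 through −0.013 to −0.0015. The SD over the regions of a class lay between 0.11 and 0.18, and whether the classes differ was not tested.

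The arms were not alike. Centre minus edge of the H3K27me3 difference had a median of 0.13 (SD 0.14) on 2R, where it was above 0 in 13 of 14 regions, against 35 of 70 stretches of that arm. It was 0.061 (15 of 25 above 0) on 2L, 0.073 (14 of 20) on X, 0.014 (9 of 16) on 3L and 0.017 (14 of 26) on 3R. The stretches of these arms had medians of −0.016 on 2L, −0.0012 on X, −0.057 on 3L and −0.0018 on 3R. In this order, 45.3%, 50%, 37.2% and 49.4% of the stretches were above 0. Among the regions it was 60%, 70%, 56.25% and 53.8%, so on 3R the share was near that of the stretches. On 2R the y,w centre was above the edge in 13 of 14 regions and the SuUR centre in 5 of 14. The largest centre minus flank median was likewise that of 2R, at 0.23 (SD 0.31), and the smallest that of 2L, at 0.047 (SD 0.23). Whether the arms differ was not tested.

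The study also listed SSRs, where published array profiles of the same tissue had shown H3K27me3 to be SuUR-sensitive, and SNRs, where it was not. SSRs covered 78.0% of the bases at the centre of the regions and 63.6% at the edge, and SNRs 9.31% and 8.50%. The positions thus differed in SSR content, and the contrast was taken within SSR windows as well. Centre windows inside an SSR had a median difference of 0.038 (SD 0.19, n = 87 regions), edge windows inside an SSR −0.048 (SD 0.18, n = 88) and flank windows inside an SSR −0.060 (SD 0.19, n = 67). Within SSR windows alone, centre minus edge had a median of 0.068 (SD 0.19) and was above 0 in 53 of 87 regions (60.9%). Of the stretches, which were not limited to SSR windows, 46.2% were above 0. Windows outside an SSR had −0.11 at the centre (n = 39), −0.087 at the edge (n = 77) and −0.13 in the flank (n = 100). Inside SSRs the median difference was thus similar in flank and edge and higher at the centre. Outside SSRs it stayed low at each position. The medians of the positions come from different sets of regions.

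The 88 regions that overlap an SSR had a median H3K27me3 level at the centre of 0.085 in y,w, whereas the 13 that overlap none had 0.63. These 13 regions lay high in SuUR as well, at 0.63. Their centre difference was −0.092 (SD 0.30), and centre minus edge was 0.030 and above 0 in 8 of 13. The 26 regions that overlap an SNR had a centre minus edge difference of 0.036 (above 0 in 17) and a centre minus flank difference of 0.10. The 75 regions without an SNR had 0.058 (above 0 in 48) and 0.11. Both sets thus had their higher difference at the centre, although their y,w H3K27me3 levels there were 0.37 with an SNR and 0.059 without.

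Single regions ranged from 0.61 to −0.33 in centre minus edge of the H3K27me3 difference, and the stretches from 0.57 to −0.57. Only the largest region value thus lay outside the range of the stretches. The largest belonged to 2L:16887122-17412633, which is 526 kb long, 84.6% SSR and without an SNR. Its y,w level was 0.59 at the centre, −0.055 at the edge and −0.19 in the flank. Its SuUR level was 0.041 at the centre, 0.0075 at the edge and −0.16 in the flank. The highest y,w window, 1.19, lay at 49.1% of the length, and the highest SuUR window, 0.67, at 70.0%. The difference reached 1.27 in the middle and was above 0 in 73 of its 105 windows. The strong y,w peak in the middle of this region had no counterpart in SuUR. On average H3K27me2 ran the other way there, with a y,w level of −0.030 at the centre and 0.13 at the edge. Its windows at the centre were mixed. The lowest y,w window, −1.08, lay at 36.7% of the length, and the highest, 0.585, at 52.9%, near the H3K27me3 peak.

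The next largest were a pair of regions of 145 kb that are wholly SSR. In 2R:13805001-13950000 (contrast 0.46), y,w had 0.12 at the centre and −0.16 at the edge, and SuUR −0.027 and 0.16. In 2L:20485001-20630000 (contrast 0.41), y,w had 0.057 at the centre and 0 at the edge, and SuUR −0.0086 and 0.35. In both, the SuUR edge was above the SuUR centre, so the contrast was made at the edge as well as at the centre.

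The 3 smallest values belonged to regions where the SuUR centre was the higher. In 2L:4461631-4830670 (369 kb, contrast −0.33), the y,w centre was −0.082 and its edge −0.14, whereas the SuUR centre was 0.12 and its edge −0.27. In 3L:14835001-15045000 (210 kb, contrast −0.30), the centre was −0.22 in y,w and 0.18 in SuUR, with edges of −0.10 and −0.0036. In 2L:10529417-10685000 (156 kb, contrast −0.28), the centre was 0.16 in y,w and 0.42 in SuUR, with edges of 0.042 and 0.016. These regions are 84.1%, 65.4% and 100% SSR, so a high SSR content did not set them apart from those with the largest values.

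**Figure D5:**
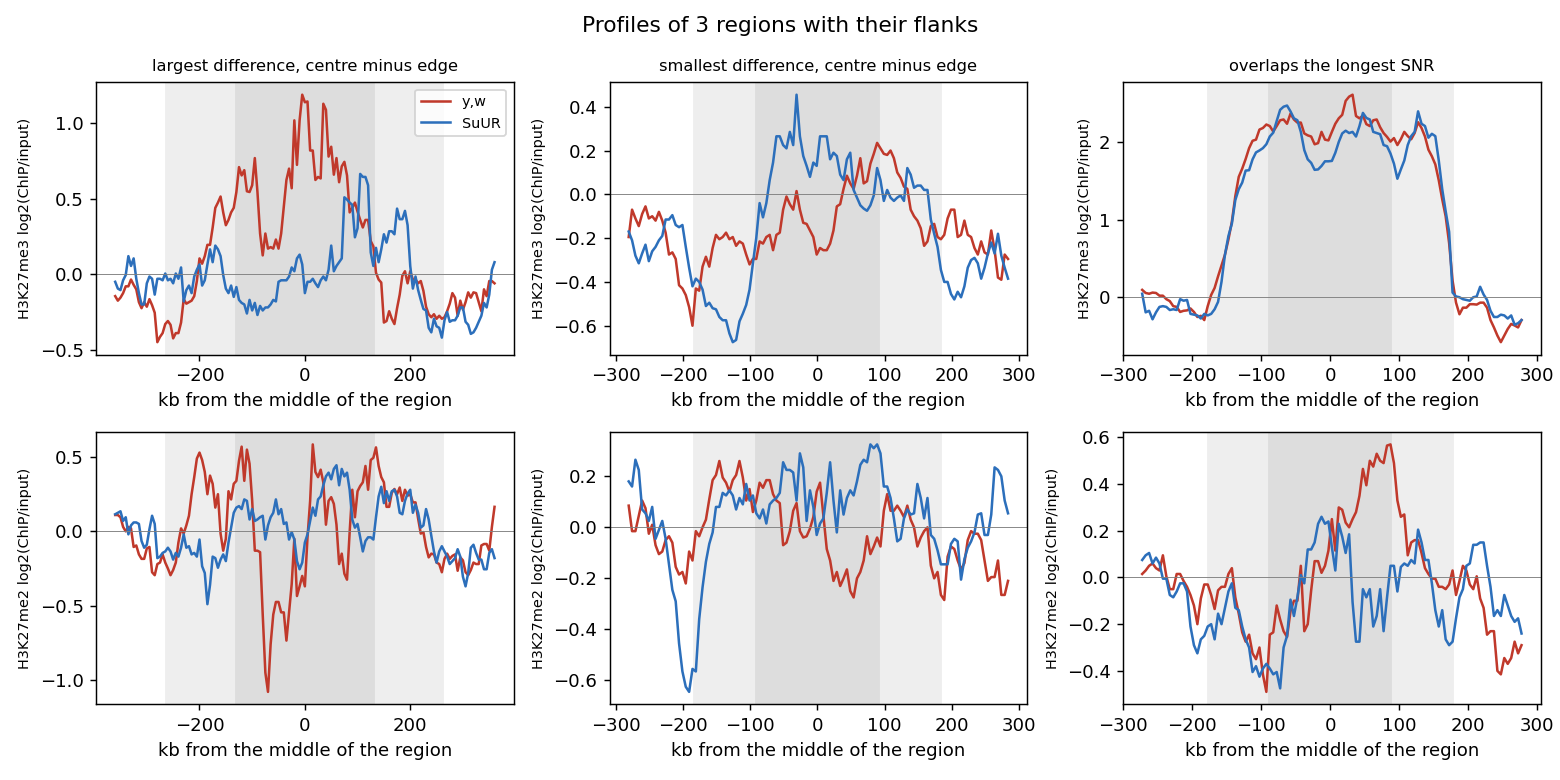
Window values, log2(ChIP/input), of H3K27me3 (top) and H3K27me2 (bottom) in y,w (red) and SuUR (blue) against distance from the middle of the region (kb), for the regions with the largest and smallest centre minus edge difference and the one that overlaps the longest SNR. Light grey marks the edges and dark grey the centre, and the panels have axes of different range. In the first the y,w peak of 1.19 is missing from SuUR, in the second SuUR (0.12) lies above y,w (−0.082) at the centre, and in the third both genotypes stay above 2 at the centre on average.

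The longest region of each arm gave mixed contrasts. The longest of all, 2L:17486806-18275000 (788 kb, 98.0% SSR), had H3K27me3 centres of 0.22 in both genotypes and edges of 0.11 and 0.012, a contrast of −0.087. Its window differences ran from 0.97 at 32.8% of the length to −1.06 at 68.9%, so the mean hid large opposite parts. X:13894243-14480743 (587 kb) had centres of 0.12 in y,w and −0.033 in SuUR with edges of 0.098 and 0.23, a contrast of 0.29. 3L:4605001-5132454 (527 kb) had centres of 0.11 and −0.0019 with edges of 0.069 and 0.11. 3R:15882140-16376852 (495 kb) had centres of −0.014 and −0.057 with edges of −0.026 and 0.021. 2R:15700001-16080000 (380 kb) had centres of 0.096 and 0.068 with edges of 0.00053 and 0.090. In 4 of these 5 the centre difference was above the edge difference, the exception being the longest.

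The highest H3K27me3 centres were close in both genotypes. X:4280001-4340000 (60 kb, 100% SNR) had 2.46 in y,w and 2.56 in SuUR at the centre, and 2.04 and 2.16 at the edge. 3R:12465001-12820000 (355 kb, 89.9% SNR) overlaps the longest SNR of the list (319 kb) and spans the bithorax complex, a cluster of Hox genes kept silent by Polycomb. It had 2.23 in y,w and 2.07 in SuUR at the centre, 1.52 and 1.43 at the edge, and −0.17 and −0.14 in the flank. Its y,w level was above 0 in all 71 windows and its SuUR level in 68. 3R:6265001-6505000 (240 kb, 78.2% SNR) had 1.11 and 1.09 at the centre and 0.63 and 0.45 at the edge. Centre differences of −0.10, 0.16 and 0.019 in these 3 regions were small beside levels of 1 to 2.5. Beside the centre differences of all regions, with quartiles of −0.13 and 0.0875, the value of 0.16 lay above the upper quartile. The H3K27me2 centres of these 3 regions in y,w were −0.042, 0.14 and 0.020, all below the median of 0.15 over the regions.

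The lowest y,w centres belonged to X:19717529-20053871 (336 kb), 3L:14835001-15045000, given above, and X:21335001-21460000 (125 kb). The first had −0.52 in y,w and −0.32 in SuUR at the centre and −0.14 and −0.062 at the edge, with a lowest y,w window of −1.47 at 34.9% of the length. The third had −0.17 and −0.11 at the centre and 0.037 and 0.23 at the edge. Its H3K27me2 level at the centre was 0.20 in y,w and 0.49 in SuUR, the latter the highest SuUR centre of the 101 regions. In both regions on X the centre lay below the edge in either genotype, the reverse of the order of the medians.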

How the data were processed

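The authors mapped paired-end reads to dm3 with MOSAIK. The deposited values are log2 ratios of ChIP to input in windows of 50 kb at steps of 5 kb, quantile normalized between the genotypes within each mark. The methods mention 3 biological replicates for ChIP-seq, whereas the labels list 1 ChIP and 1 input library per genotype and mark for glands. Whether these pool replicates is not given in the sources used here, and each profile was taken as 1 measurement. The 12 embryo libraries were not used here. Larvae were kept at 23 °C, and the labels give 20 pairs of glands per sample.

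Windows of arms 2L, 2R, 3L, 3R and X were averaged per region and position, and medians were taken over regions. Thresholds were 0.1 for contrasts between positions and 0.2 for differences. With 1 profile per genotype and mark, no test was made. Members, lists and alternatives were chosen with earlier results of these data known, and the SSR windows, the spread within positions and the stretches per arm were added after the values were seen.

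Regions were named by a rule: the 3 largest and 3 smallest H3K27me3 differences, centre minus edge, among regions with at least 5 windows at either position, the longest region of each arm, the 3 highest and 3 lowest y,w H3K27me3 centres, and the region that overlaps the longest SNR. Coordinates are 1-based dm3. No dm3 genome or annotation was used, so gene and base content by position were not analysed here. The averaging was tested on simulated profiles, with a rise added to windows already assigned to the centre. The blur of a border by windows of 50 kb was not simulated. Python 3.11.15 was used with numpy 2.4.6, pandas 2.3.3, scipy 1.17.1, statsmodels 0.14.6 and matplotlib 3.10.9.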

Additional observations from a re-analysis of the deposited data

How the results depend on the processing

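With 1 profile per genotype and mark, leaving out a replicate was not possible. No paired analysis was possible because each salivary gland group has 1 library and the values come from no test. The H3K27me3 difference, centre minus edge, stayed above 0 under each of 10 alternatives, with values from 0.050 (a mean over regions) to 0.085, and centre minus flank under each of 11, from 0.092 to 0.15. The largest move was that of centre minus flank to 0.15 in the 57 regions of at least 200 kb, where the share of regions with the centre above the edge was 66.7% in place of 64.4%. The H3K27me2 difference, centre minus edge, was above 0 under 5 of 10 alternatives, from −0.013 to 0.021, and centre minus flank lay between 0.0077 and 0.049. The alternatives took only windows wholly inside a region, cut regions into 3 equal parts, counted each window once, took means, narrowed the flank to 50 kb, left out chromosome X or regions with an SNR, merged neighbours, normalized over the arms alone, or subtracted a lowess trend on signal. Windows of 50 kb limit what can be seen of regions under 200 kb, and without read counts no interval can be given for a window.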

Other observations

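The edges of a region were also taken apart by their side, chosen after the values were seen. For H3K27me2 the difference, y,w minus SuUR, had a median of 0.070 (SD 0.16, n = 101) at the edge that faces the telomere and was above 0 there in 69 regions. At the edge that faces the centromere it was −0.017 (SD 0.19) and above 0 in 44. The levels behind it were 0.12 and 0.076 in y,w, and 0.040 and 0.10 in SuUR, so the genotypes leaned to opposite sides. The edges of the stretches had −0.013 and 0.010. They were above 0 in 47.1% and 52.5% of the stretches, against 68.3% and 43.6% of the regions. For H3K27me3 the difference was −0.037 and −0.072 at these edges.

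The signs of centre minus edge in the 2 marks were spread over all combinations. Both marks had a larger difference at the centre in 33 regions, H3K27me3 alone in 32, H3K27me2 alone in 18 and neither in 18. The combinations were not counted in the stretches.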
